A study of Mus musculus with 24 samples.

Results

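The 8 genes described here are Trp63, which encodes the transcription factor p63, and 7 genes of the contractile machinery of myoepithelial cells, namely Acta2, Myh11, Cnn1, Mylk, Tagln, Myl9 and Oxtr. They were chosen by name: every non-control probe on the array whose gene name was one of the 8 was taken, which gave 12 of the 39429 probes. All 12 probes had enough signal to be analysed, and the 8 genes stood among 20961 genes tested. RNA came from 24 mammary tumors, each induced in a female mouse of the inbred strain BALB/c by oral doses of the carcinogen DMBA, which all groups received. The tumors came from mice fed a low-fat diet throughout (LFD, 5 late tumors), a high-fat diet throughout (HFD, 3 early and 6 late tumors), a low-fat diet in peripuberty and a high-fat diet in adulthood (LFD-HFD, 4 late tumors), or the reverse (HFD-LFD, 3 early and 3 late tumors). Early and late are the deposited labels for the time at which a tumor arose after DMBA, and only the HFD and HFD-LFD groups had early tumors. Each tumor was hybridized on its own Agilent array beside a common reference RNA pooled from 11 mouse cell lines.

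Myoepithelial cells form the outer, basal layer of the mammary ducts and alveoli, between the luminal cells and the basement membrane, and contract to eject milk. Oxytocin binds its receptor on these cells and raises calcium, calmodulin then activates myosin light chain kinase, and the phosphorylated light chain lets smooth muscle myosin pull on smooth muscle actin. The same contractile proteins are made by smooth muscle cells and pericytes of vessels and by activated fibroblasts, whereas p63 marks basal and squamous epithelial cells and is needed for the basal identity of stratified and glandular epithelia. In bulk tumor RNA, fewer cells of a type and less RNA per cell cannot be told apart.

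Values are log2 ratios of tumor over reference after normalization within each array, so that 0 means the level in the reference, and they are compared between tumors for the same gene only. The study's methods name the dyes the other way round from the sample labels, so the direction used here, with tumor RNA in Cy5, opposes the direction stated in those methods. It was settled from the signals: the reference is the same on every array, and intensities varied less from array to array in Cy3 (median SD 0.27 log2 units over 27302 probes) than in Cy5 (0.62). On 7 of the 24 arrays, all of late tumors and all of slides 6 and 7, Cy5 was dimmed over a block of rows, whose dimmest band lay between -6.21 and -4.75 log2 units from the array's median, and values in these rows were set missing. Trp63 and Myh11 were therefore measured in 20 tumors, Myl9 in 21 and Mylk in 22, and Acta2, Cnn1, Tagln and Oxtr in all 24. The tumor signal cleared background for 65.3% to 89.1% of probes, depending on the array. It did so for each of the 12 member probes in every tumor in which the probe was measured, and none was saturated. No value of a member gene was imputed. The labels do not say more of the mice from which single tumors came, so p-values measure the spread between these tumors.

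The probes lie on mm9 at chr19:34316060-34316119 for Acta2, chr9:21913058-21913117 for Cnn1, chr9:45738097-45738156 for Tagln, chr16:14202190-14202249 for Myh11, chr2:156607301-156607360 for Myl9 and chr6:112423686-112423745 for Oxtr. Mylk had 2 probes, at chr16:35001266-35001325 and chr16:34953958-34954017, and the first, which was brighter, stood for the gene. Trp63 had 4 probes on chromosome 16, of which A_51_P216550, at chr16:25892012-25892071, was the brightest and stood for the gene. The Trp63 probes at chr16:25821344-25821403 and chr16:25871159-25871218 are printed here because they gave opposite differences between early and late tumors, as described below. In the second of them the capitals mark a run of 6 CAG units, and 3 of the 39429 probes on the array (0.00761%) held a run at least as long.
Trp63 A_55_P1952056: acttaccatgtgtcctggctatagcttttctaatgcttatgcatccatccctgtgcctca
Trp63 A_55_P2161055: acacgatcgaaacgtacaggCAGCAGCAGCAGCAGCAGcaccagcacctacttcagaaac

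Of the 7 contractile genes, 3 were lower in early than in late tumors and 4 did not pass the test. With limma and Benjamini-Hochberg adjustment over 20961 genes, 3 of the 8 genes passed an adjusted p of 0.05 between the 6 early and the 18 late tumors, Myh11, Cnn1 and Tagln, and all of these were lower in early tumors. Over all genes tested, 17.4% passed in either direction, 10.8% as lower and 6.63% as higher in early tumors. Without adjustment, 6 members (all but Oxtr and Trp63) and 33.5% of all genes had a p under 0.05. In each of the 7 contractile genes, all 6 early tumors lay below the median of the late tumors, an arrangement found in 21.1% of all genes. In Trp63, all 6 early tumors lay above the late median, as they did in 12.9% of all genes.

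Myh11, the heavy chain of smooth muscle myosin, had log2 ratios from -3.35 to -1.24 in the 6 early tumors, with a median of -2.84. In the 14 late tumors measured it ranged from -2.32 to 2.20, with a median of 1.21. Of these late tumors 10 lay above every early tumor and the others within the early range. The difference, early minus late, was -2.88 ± 0.69 (SE) log2 units, or 7.39-fold lower in early tumors, at an adjusted p of 0.0084. Leaving out each tumor in turn kept the adjusted p between 0.0035 and 0.028. Myh11 was not measured in the late tumors MSU_24, MSU_28, MSU_93 and MSU_96, whose Cnn1 values were 2.60, -1.46, -0.11 and -2.27. Most of these missing late tumors thus had low Cnn1, and leaving out measured tumors cannot show what they would change. With the dimmed rows kept, Myh11 was not called.

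Cnn1, which encodes the actin-binding protein calponin 1, had the widest range of the members, from -4.14 to 4.22. Early tumors lay between -4.14 and -0.35, with a median of -1.73, and late tumors between -3.03 and 4.22, with a median of 2.50. Of the 18 late tumors, 11 lay above every early tumor and none below every early tumor. The difference was -3.02 ± 1.03 (SE), or 8.13-fold lower in early tumors, at an adjusted p of 0.043. This call was close to the threshold: it was kept in 9 of the 24 fits that each left out 1 tumor and was lost without any 1 of MSU_105, MSU_122a, MSU_24, MSU_34, MSU_42, MSU_45, MSU_51, MSU_54, MSU_58, MSU_59a, MSU_62a, MSU_62b, MSU_67, MSU_768 or MSU_97, with an adjusted p of at most 0.13 and a difference between -3.36 and -2.61.

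Tagln, which encodes the actin-binding protein transgelin, ranged from -1.84 to -0.43 in early tumors, with a median of -1.29, and from -1.85 to 3.01 in late tumors, with a median of 1.05. In 13 of the 18 late tumors it lay above every early tumor. The difference was -1.66 ± 0.55 (SE), or 3.17-fold lower in early tumors, at an adjusted p of 0.038. Leaving out 1 tumor kept this call in 15 of 24 fits, and it was lost without MSU_34, MSU_42, MSU_51, MSU_54, MSU_58, MSU_62b, MSU_67, MSU_768 or MSU_97, with an adjusted p of at most 0.088.

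Acta2, Mylk and Myl9 did not pass the threshold. Acta2, which encodes smooth muscle actin, had early values from -2.08 to 0.37 and late values from -1.79 to 2.10, with medians of -1.31 and 0.75. Its difference was -1.39 ± 0.50 (SE), with an adjusted p of 0.057. Acta2 was measured more often than the other members, since its probe was printed in 10 spots on each array, of which at least 5 were used. The SD between these spots within an array had a median of 0.08 log2 units. It reached 0.29 in the late tumors MSU_24, MSU_28 and MSU_96, 0.23 in MSU_59a and 0.19 in MSU_93, whose arrays all had dimmed rows. On the other arrays with dimmed rows it was 0.03 (MSU_42) and 0.07 (MSU_59b). Mylk, the kinase that activates the myosin light chain, lay between -2.11 and -0.62 in early tumors and between -2.24 and 2.55 in 16 late tumors. Its difference was -1.91 ± 0.69 (SE), with an adjusted p of 0.058. Myl9, the light chain that this kinase phosphorylates, lay between -3.10 and -1.62 in early tumors and between -3.45 and 1.67 in 15 late tumors. Its difference was -1.67 ± 0.67 (SE), with an adjusted p of 0.087. The calls of these genes appeared when certain single tumors were left out: Acta2 passed in 7 of 24 such fits (without MSU_137, MSU_163, MSU_26, MSU_28, MSU_59b, MSU_86 or MSU_96), Mylk in 6 (without MSU_137, MSU_26, MSU_28, MSU_86, MSU_93 or MSU_96) and Myl9 in 1 (without MSU_137).

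Oxtr, the oxytocin receptor, was above the reference in every tumor, unlike the other contractile genes. It ranged from 1.71 to 3.28 in early and from 1.13 to 4.42 in late tumors, with medians of 2.49 and 3.31. The difference of -0.63 ± 0.42 (SE) had an adjusted p of 0.29, and 9 of 18 late tumors lay above every early tumor.

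**Figure D1:**
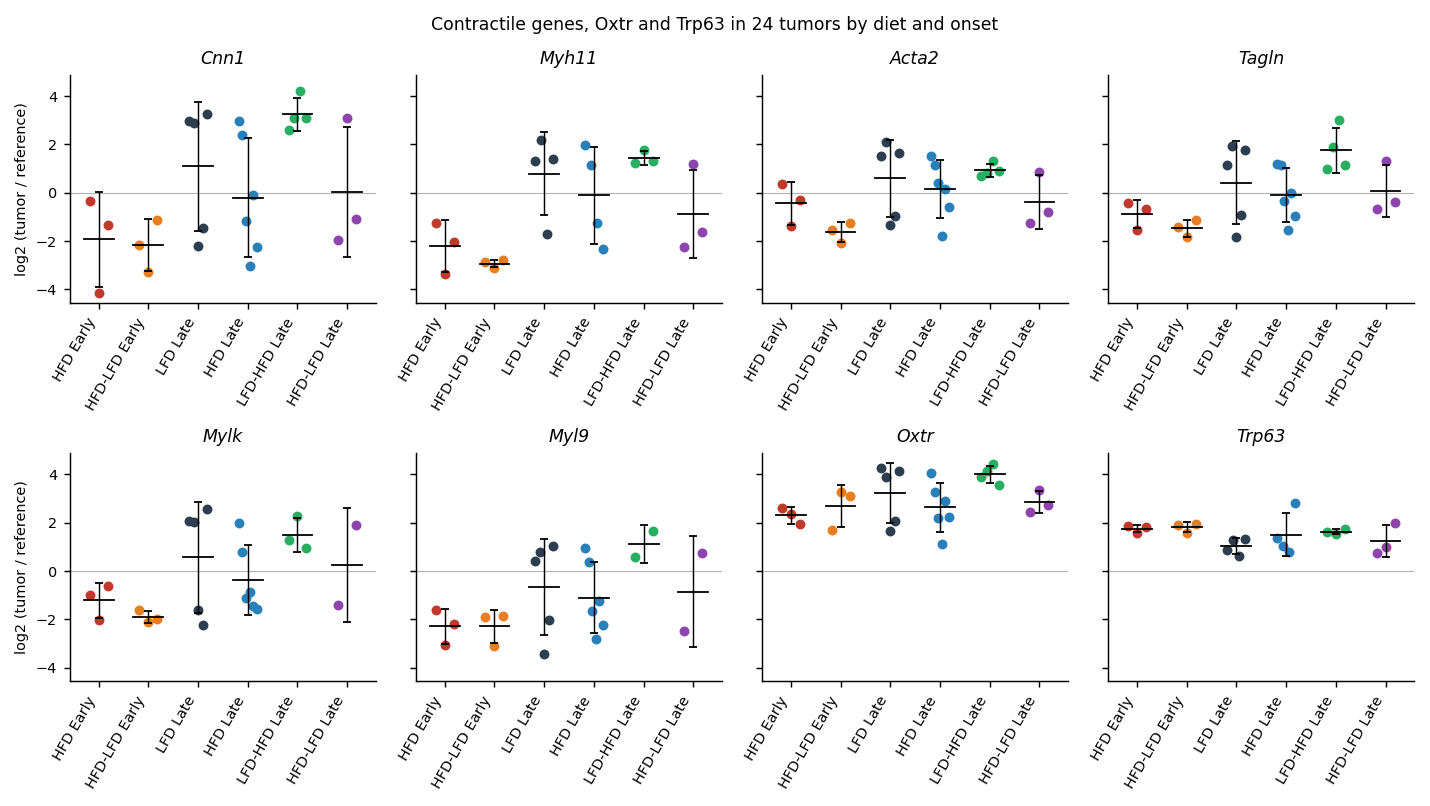
Log2 ratio of tumor over reference (vertical axis) for each of the 8 genes in the 6 groups of tumors (horizontal axis). Points are single tumors, horizontal bars are group means and error bars are SD; tumors in dimmed rows are missing. Late tumors fall into a high and a low set for Cnn1, Myh11, Myl9 and Mylk, all 4 LFD-HFD tumors lie in the high set of Cnn1 (2.60 to 4.22), and Trp63 stays above 0 in every tumor.

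Trp63 was above the reference in all 20 tumors in which its main probe was measured, at 0.64 to 2.81. Early tumors lay close together, from 1.57 to 1.95 with a median of 1.84, and late tumors spread from 0.64 to 2.81 with a median of 1.30. Of the 14 late tumors 10 lay below every early tumor and 2 above. The difference of 0.44 ± 0.24 (SE) in favor of early tumors had an adjusted p of 0.19. Among the tumors measured, the late HFD tumor MSU_86 had the highest value, 2.81, which was 0.83 log2 units above the next. Without this tumor the difference was 0.56 and passed, with an adjusted p of 0.033. That fit also lacks the late tumors MSU_24, MSU_28, MSU_93 and MSU_96, in which the main probe was dimmed. At the probe A_55_P1952056, MSU_28 and MSU_96 lay at 3.00 and 2.89, and MSU_24 and MSU_93 at 1.97 and 1.64. Whether MSU_86 alone kept Trp63 from being called thus cannot be told.

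The other Trp63 probes did not all move together. In the fit over all 27302 probes, of which 16.6% were called in either direction and 6.8% as higher in early tumors, A_55_P1952056 was higher in early tumors by 0.75 ± 0.25 (SE) log2 units with an adjusted p of 0.046. It was measured in all 24 tumors, at 2.41 to 3.49 in early and 1.36 to 3.62 in late tumors, and 14 of 18 late tumors lay below every early tumor. Its call was kept in 6 of the 24 fits that left out 1 tumor (MSU_137, MSU_163, MSU_28, MSU_59b, MSU_86 or MSU_96) and lost in the other 18, with adjusted p-values from 0.011 to 0.11. Within the first scan session it was 0.55 with an adjusted p of 0.36 and within the second 1.22 with an adjusted p of 0.027, and with slide as a random block it was 0.82 with an adjusted p of 0.11. A_52_P338796, at chr16:25867718-25867777, gave 0.21 ± 0.10 (SE) with an adjusted p of 0.15. A_55_P2161055, the probe with the CAG run, went the other way, at -0.38 ± 0.15 (SE) with an adjusted p of 0.077 (0.041 without MSU_137), and its values lay nearer the reference, from -0.29 to 0.23 in early and -0.14 to 1.17 in late tumors. The probe is listed for other RefSeq transcripts of Trp63 than A_51_P216550. The second Mylk probe, listed for a different transcript from the first, moved less, at -0.44 ± 0.16 (SE) with an adjusted p of 0.061.

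**Figure D2:**
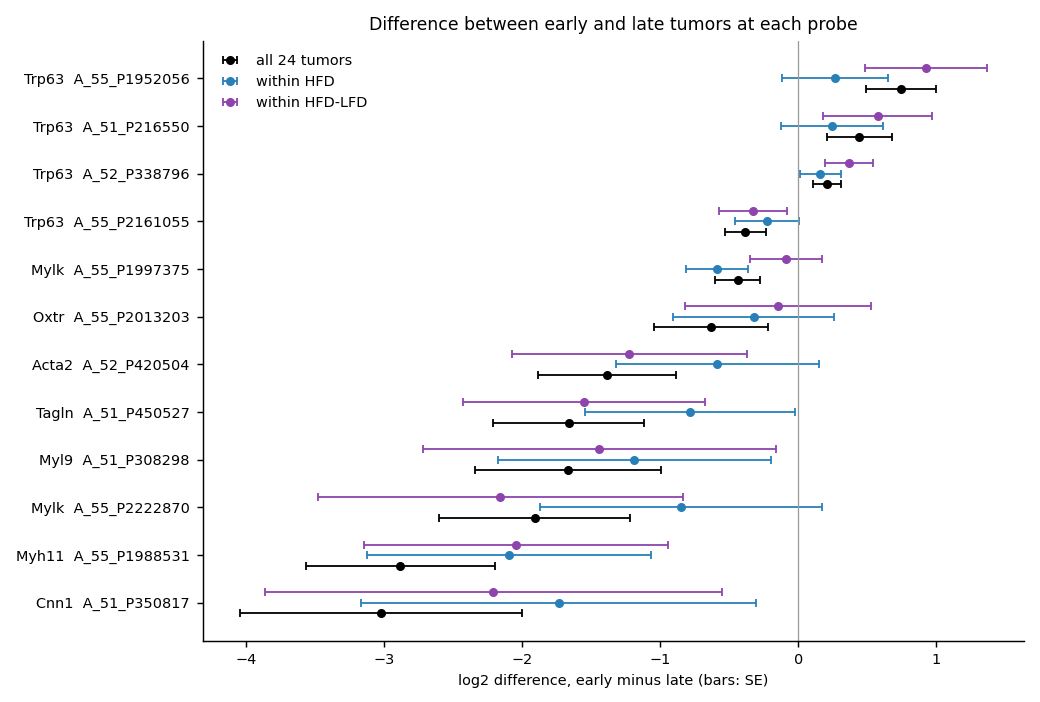
Log2 difference between early and late tumors (horizontal axis, early minus late, with SE as error bars) for each of the 12 probes (vertical axis), over all 24 tumors, within HFD and within HFD-LFD. The probes of the contractile genes lie below 0, with Cnn1 (-3.02) and Myh11 (-2.88) farthest, and 3 of the 4 Trp63 probes lie above 0.

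Scaling bears on these directions. Under the loess normalization used here the median difference of all genes was -0.06 log2 units, and 38.1% of the 3647 called genes were higher in early tumors, whereas median centring moved the median to 0.21 and 81.1% of 5273 called genes were higher. Under median centring Trp63 was called as higher in early tumors, by 0.95 with an adjusted p of 0.0089, Myh11 was still called as lower, and Cnn1 (-2.73, adjusted p of 0.054) and Tagln (-1.29, adjusted p of 0.089) were not called. The sign of the difference over all 24 tumors was the same for each of the 8 genes under both scalings.

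Slides and scan sessions bear on the calls too. The 6 early tumors lay on 2 of the 7 slides, 1 of which held no late tumor and the other 1 late tumor, so no value within a slide is given. With slide as a random block, Myh11 alone was called, and Cnn1 (-3.67, adjusted p of 0.088) and Tagln (-2.19, adjusted p of 0.058) were not. With scan session as a fixed block Mylk was called as well as Cnn1, Myh11 and Tagln. Within the first session, with 3 early and 8 late tumors, the differences were -2.55 for Myh11, -2.95 for Cnn1 and -1.31 for Tagln, and within the second, with 3 early and 3 late tumors, they were -3.18, -3.98 and -2.68, none of which passed (adjusted p of 0.13, 0.23 and 0.31, and of 0.090, 0.15 and 0.096). Without slides 6 and 7, 4 genes were called (Cnn1, Myh11, Mylk and Tagln). With the dimmed rows kept, Tagln alone was called.

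Within a single diet the same signs were seen without a call. Between 3 early and 6 late HFD tumors, of which Myh11 and Trp63 were measured in 4, none of the 8 genes passed, against 12.9% of all genes (7.16% lower and 5.72% higher in early tumors). The smallest unadjusted p was 0.059, while 29.7% of all genes had an unadjusted p under 0.05. The mean difference was -2.10 ± 1.03 (SE) for Myh11, -1.74 ± 1.44 for Cnn1, -0.79 ± 0.76 for Tagln and 0.24 ± 0.37 for Trp63. Between 3 early and 3 late HFD-LFD tumors, of which Mylk and Myl9 were measured in 2, none passed either, against 0.759% of all genes, and the smallest unadjusted p was 0.082. Here the difference was -2.05 for Myh11, -2.21 ± 1.66 (SE) for Cnn1, -1.55 ± 0.88 for Tagln and 0.57 ± 0.40 for Trp63. The 95% interval for Myh11 ran from -4.21 to 0.12. It was computed from the SE with the normal quantile, so it is narrower than one from the t distribution of the limma test. The changes in HFD and in HFD-LFD did not pass a test of their difference in any member, with a smallest unadjusted p of 0.44 and adjusted p of 0.84, and no gene of the 20961 was, although 1664 (7.94%) had an unadjusted p under 0.05. Array weights from limma give less weight to tumors whose values lie far from the fit, and rest on no separate measure of array quality. With them, 6 of the 8 genes passed within HFD, beside 39.5% of all genes. Acta2, Cnn1, Myh11, Myl9 and Tagln were lower and Trp63 higher in early tumors. None passed within HFD-LFD, beside 11.0% of all genes.

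Diet by itself was not called for any of the 8 genes. Between the 9 HFD tumors, 3 of them early, and the 5 LFD tumors, none of the 20961 genes passed in limma and 939 (4.48%) had an unadjusted p under 0.05, with none of the 8 members among them. Myh11 was measured in 7 and 4 tumors and differed by -1.80 ± 1.03 (SE), Cnn1 by -1.87 ± 1.25, Acta2 by -0.65 ± 0.66, and Trp63, in 7 and 4 tumors, by 0.58 ± 0.33. The 95% intervals, computed with the normal quantile as above, ran from -3.82 to 0.22 for Myh11 and from -0.06 to 1.23 for Trp63. These intervals are somewhat too narrow, and even so differences of these sizes could not be told from 0.

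The groups differed in how much their tumors varied. Mean Cnn1 was highest in LFD-HFD late tumors, at 3.25 ± 0.69 (SD, n = 4), followed by LFD late at 1.09 ± 2.68 (SD, n = 5), HFD-LFD late at 0.03 ± 2.70 (SD, n = 3), HFD late at -0.20 ± 2.45 (SD, n = 6), HFD early at -1.94 ± 1.97 (SD, n = 3) and HFD-LFD early at -2.18 ± 1.07 (SD, n = 3). Each step in this order was smaller than the larger SD of its 2 groups. The 4 LFD-HFD tumors had Cnn1 at 2.60, 3.08, 3.10 and 4.22. The 5 LFD tumors split into 3 at 2.87, 2.96 and 3.27 and a pair at -1.46 and -2.19. The 3 late HFD-LFD tumors had 3.11, -1.08 and -1.94, and the 6 late HFD tumors ranged from -3.03 to 2.98 with a median of -0.63. Trp63 had another order, with HFD-LFD early at 1.81 ± 0.22 (SD, n = 3), HFD early at 1.75 ± 0.15 (SD, n = 3), LFD-HFD late at 1.64 ± 0.12 (SD, n = 3), HFD late at 1.51 ± 0.90 (SD, n = 4), HFD-LFD late at 1.24 ± 0.65 (SD, n = 3) and LFD late at 1.03 ± 0.33 (SD, n = 4), and again each step was smaller than the larger SD. The LFD-HFD tumors thus had high Cnn1 beside values of 1.53, 1.62 and 1.76 at the main Trp63 probe. This combination was not tested against the other diets. The order given for Trp63 is that of its main probe and was not kept at the others. At A_55_P1952056 the LFD-HFD mean was 2.00, above only LFD late (1.96). At A_52_P338796 it was 0.82, above only HFD-LFD late (0.73). At A_55_P2161055 it was 0.43, below only LFD late (0.50).

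Across tumors, Cnn1 took either a high or a low value. Its largest gap, of 2.51 log2 units, ran from -0.11 to 2.39, with 14 tumors below and 10 above, and no early tumor was above it. Myh11 had a gap from -1.24 to 1.14 with 9 tumors above, Myl9 from -1.24 to 0.36 with 8 above, and Mylk from -0.62 to 0.80 with 9 above. These were the same tumors as for Cnn1 wherever they were measured. The 10 tumors with high Cnn1 also had the 10 highest values of Acta2 (0.67 and above, against at most 0.39 in the others) and of Tagln (0.96 and above, against at most -0.02), and 9 of the 10 highest of Oxtr. Trp63 at its main probe did not follow them: of the 9 tumors with high Cnn1 in which it was measured, 2 were among its 9 highest. Another Trp63 probe, A_55_P1952056, lay at 1.36 to 2.12 in the 10 tumors with high Cnn1. In the remaining tumors this probe lay at 1.63 to 3.62.

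**Figure D3:**
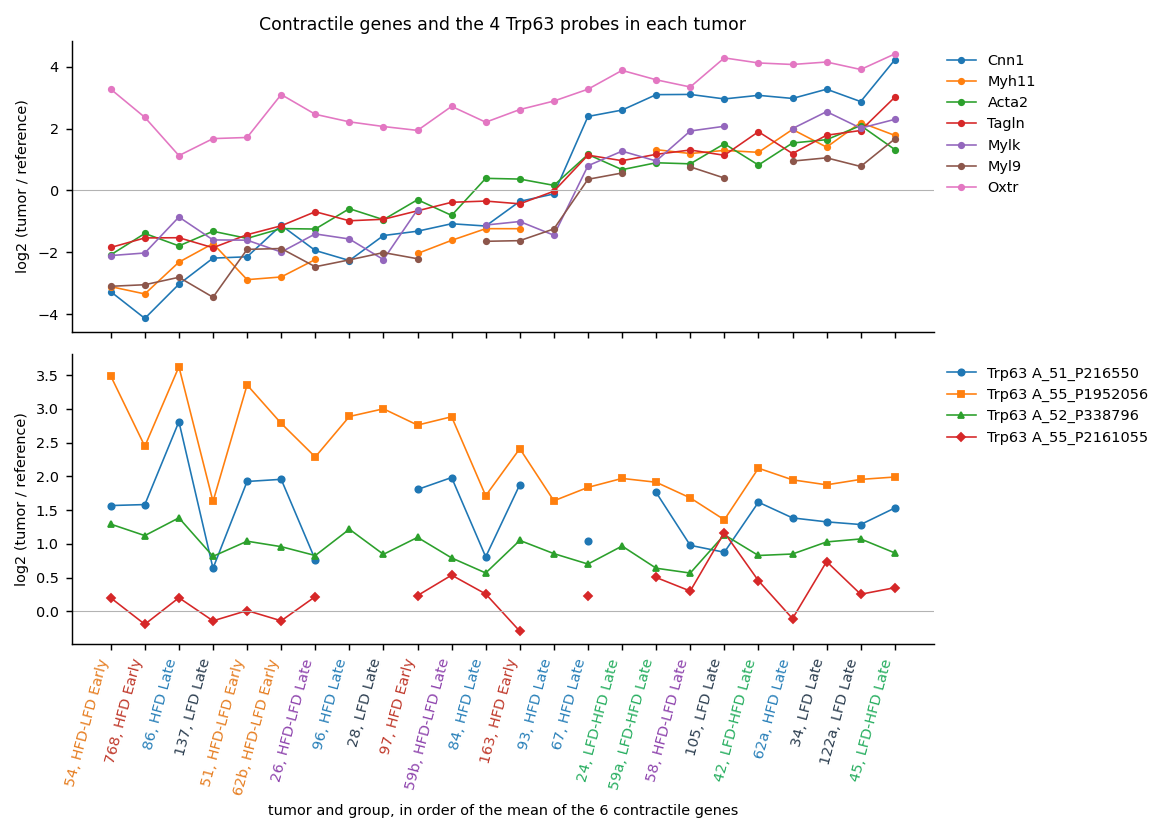
Log2 ratio of tumor over reference (vertical axis) in each tumor, ordered from left to right by the mean of the 6 contractile genes Acta2, Myh11, Cnn1, Mylk, Tagln and Myl9 (over those measured). The upper panel shows these genes and Oxtr, and the lower panel the 4 Trp63 probes; breaks are dimmed values. Cnn1, Myh11, Myl9 and Mylk step up over the last 10 tumors where measured. Cnn1 lies at -0.11 before the step and at 2.39 after it. The main Trp63 probe, A_51_P216550, shows no such step. A_55_P1952056 lies at 1.36 to 2.12 in the last 10 tumors and at 1.63 to 3.62 in the others.

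Because the tumors form these separate sets, no correlation between members is given over all of them. Within the 14 tumors with low and the 10 with high Cnn1, 56 relations were computed, with two-sided permutation p-values (exact for fewer than 10 tumors) adjusted over the 56. In the low set 8 relations passed by Pearson's r, all among Acta2, Cnn1, Tagln, Myl9 and Myh11. The highest was that of Acta2 with Tagln (r = 0.85, rho = 0.86, n = 14, permutation p = 1e-04 for r and 0.00014 for rho, adjusted p = 0.0053 and 0.0039), and r was 0.85 without the 2 tumors farthest from the median of Acta2. Cnn1 with Tagln had r = 0.82 and rho = 0.84 (n = 14, permutation p = 0.00033 and 0.0004, adjusted p = 0.0053 and 0.0075), with r = 0.80 without the 2 farthest tumors. In the high set 4 relations passed by r and none of these by rho, whereas Mylk with Oxtr passed by rho alone (rho = 0.88, r = 0.72, n = 9, exact permutation p = 0.0031 and 0.030, adjusted p = 0.029 and 0.10). That of Cnn1 with Tagln (r = 0.84, rho = 0.60, n = 10, permutation p = 0.0098 and 0.073, adjusted p = 0.0497 and 0.23) fell to r = 0.43 without 2 tumors and so rested on them. Trp63 passed with no member in the low set, where r lay between -0.25 for Myh11 and 0.21 for Mylk, and with Myl9 alone in the high set (r = 0.86, rho = 0.86, n = 7, exact permutation p = 0.0097 and 0.024, adjusted p = 0.0497 and 0.10).

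The genes most like the contractile genes were sought among all non-member genes by Pearson's r over the tumors with the mean of the 6 contractile genes, as a description of these tumors with no p. Actg2, a further smooth muscle actin, was highest (r = 0.97 over 20 tumors). It was followed by Mrvi1 (0.96), Tpm2 (0.96), Pramel13 (0.95), 5430431A17Rik (0.95), Synpo2 (0.94), Micall1 (0.94), Pdlim3 (0.94), Gm13446 (0.94) and Tgfb1i1 (0.94), over 20 tumors for Tpm2 and 24 for the others. Tpm2 encodes a tropomyosin, and Synpo2 and Pdlim3 encode proteins of actin filament bundles and Z-discs. All these tumors fall into the high and low sets above, so that r follows membership of a set as well as differences within it. For Trp63 the list was different: Cbr3 (0.87), Arhgef4 (0.87), Hmgcs1 (0.84), P2ry1 (0.84), Btbd11 (0.83), Pcdhb22 (0.83), Phldb2 (0.82), Olfr1564 (0.82), Cyp51 (0.82) and Myo5a (0.81), over 17 or 20 tumors. Hmgcs1 and Cyp51 encode enzymes of cholesterol synthesis.

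Genes that work with the members were followed in lists written by hand, with counts of genes called between early and late tumors beside the 17.4% called over all genes. Their direction moved with the scaling: of the 112 list genes tested, 4 were called higher and 17 lower in early tumors, against 16 higher and 9 lower under median centring. Of 12 smooth muscle partner genes tested, 4 were lower in early tumors and none higher, and the median difference was -0.44 log2 units against -0.06 over all genes (2 lower and a median of -0.01 against 0.21 under median centring). Synpo2 differed by -2.24 ± 0.60 (SE; adjusted p = 0.014) and Actg2 by -2.51 ± 0.72 (adjusted p = 0.023), from means of -1.50 in late to -4.00 in early tumors. Tpm2 and Myl6, a myosin light chain, were the others. Des, the intermediate filament protein of muscle, lay far below the reference in both, at -5.06 in early and -4.67 in late tumors, and Cald1, a further actin-binding protein, differed by 0.00 ± 0.14 (SE).

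Of 16 genes that control contraction, 2 were called, both lower in early tumors, and the median difference was -0.15, whereas under median centring 2 were called higher, none lower, and the median was 0.24. The 2 genes called lower under the loess normalization were Gna11 and Ppp1r14a. Gna11, a G protein alpha subunit of the kind that oxytocin receptors couple to, differed by -0.60 ± 0.13 (SE, adjusted p = 0.0041 in limma). Ppp1r14a, an inhibitor of myosin phosphatase, differed by -1.55 ± 0.47 (SE, adjusted p = 0.026 in limma). Myocd, the smooth muscle coactivator of serum response factor, was well above background in 13 of 24 tumors, and its difference was 0.31 ± 0.20 (SE; adjusted p = 0.28). Srf itself differed by -0.02 ± 0.12, and the related coactivators Mrtfa and Mrtfb by -0.18 ± 0.12 and -0.19 ± 0.15, and none was called.

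Serum response factor binds the CArG box, which lies in front of many smooth muscle genes. Reference promoters, from 250 bases before to 50 after the gene's start, were at hand for 5 of the 8 members (Acta2, Cnn1, Mylk, Myl9 and Oxtr; RefSeq, GRCm38.p6). A strict CArG box, a pattern that covers both strands at once, was sought in them. Myl9 held 1, from 161 to 152 bases before its start, as did 1.63% of 32851 promoters. The 130 bases around it, at chr2:156775243-156775372 on the plus strand, are shown with the box in capitals since Myl9 moves with the other contractile genes. A match of letters is no evidence of binding, and its absence says only that these letters are not in the other windows.
Myl9 promoter: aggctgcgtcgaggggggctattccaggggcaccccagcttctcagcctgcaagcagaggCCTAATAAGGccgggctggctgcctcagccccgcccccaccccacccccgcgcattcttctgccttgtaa

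Around Trp63, 21 genes of the p63 family and of basal epithelium were tested. In early tumors 4 of them were higher and 2 lower, with a median of 0.63 against -0.06 over all genes, and under median centring 11 were higher and 1 lower. Fermt1, which links integrins to the cytoskeleton, was higher by 0.84 ± 0.16 (SE; adjusted p = 0.0027), Cdh3 (P-cadherin) by 1.40 ± 0.40 (adjusted p = 0.019), Trp73, a relative of Trp63, by 1.52 ± 0.47 (adjusted p = 0.029) and Itgb4 by 0.73 ± 0.23 (adjusted p = 0.031). Itga6, its partner in the hemidesmosome integrin, was lower, at -0.85 ± 0.16 (adjusted p = 0.0018), as was the keratin gene Krt15, at -1.71 ± 0.50 (adjusted p = 0.024). The basal keratins Krt5 and Krt14 were not called, at 0.45 ± 0.45 and 1.17 ± 0.65 (SE). Across tumors, r with Trp63 had a median of 0.57 over the 21 genes and was highest for Dst (0.78), Itgb4 (0.75), Perp (0.75) and Snai2 (0.74). The list did not follow Trp63 throughout. Sox10 had the lowest r with Trp63, at -0.56, and Krt15 (-0.06), Itga6 (-0.01), Lama3 (0.01) and Trp53 (0.05) came next. With the contractile mean, the median r of the 21 genes was -0.27.

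None of 10 squamous genes was called (3 higher in early tumors under median centring), with a median difference of 1.27 and the smallest p for Dsg3 (1.04 ± 0.37, SE; adjusted p = 0.057) and Ivl (1.31 ± 0.61; adjusted p = 0.13). Their mean log2 ratio ranged from -2.84 to 0.08 in early and from -3.96 to 2.90 in late tumors, with a late median of -2.98. The late HFD tumor MSU_86 had the highest value, and the next was 0.49. Without MSU_86, 3 of the 10 genes were called, all higher in early tumors. Their r with the contractile mean lay between -0.77 and -0.36 and with Trp63 between 0.37 and 0.65. Of 11 luminal genes 5 were lower in early tumors and none higher, with a median of -1.82 (9 lower without MSU_86, and 3 lower under median centring). The share of all genes called without MSU_86 is not given here, so the counts without it have no background. Over the 112 list genes, leaving out MSU_86 gave the most calls, 32 against 21 with all tumors and 10 without MSU_768. Under median centring 5273 of 20961 genes were called, 81.1% of them higher in early tumors. Gata3 differed by -2.15 ± 0.32 (SE; adjusted p = 0.00039) and Prlr, the prolactin receptor, by -3.94 ± 0.87 (adjusted p = 0.0043), and Esr1, Foxa1 and Krt19 were the others. The luminal genes had a median r of 0.76 with the contractile mean and of -0.49 with Trp63.

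**Figure D4:**
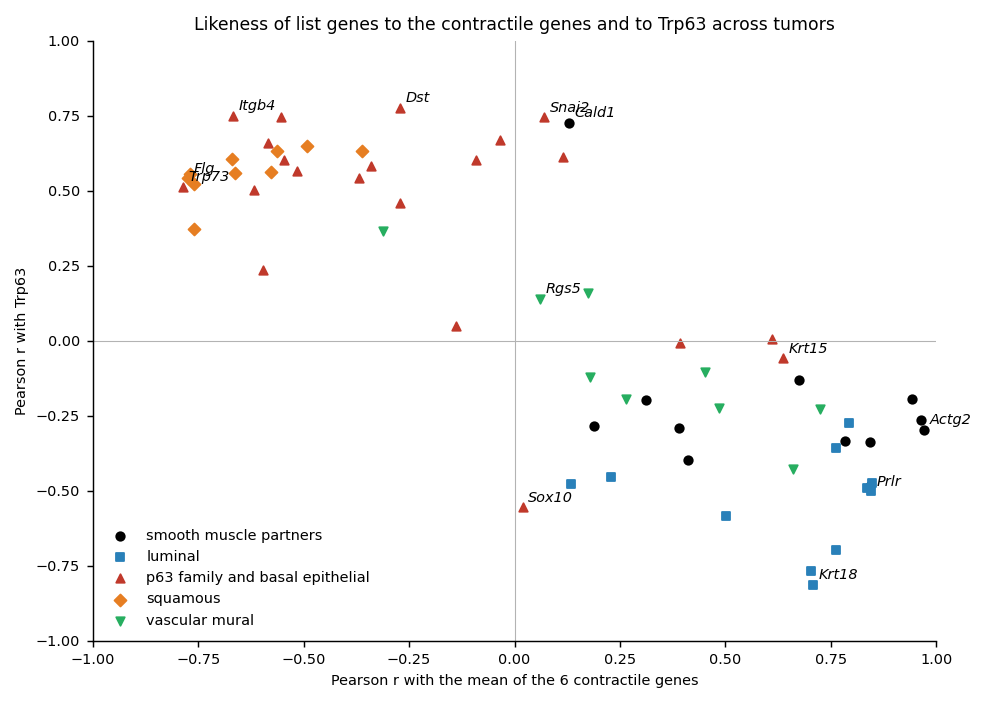
Pearson's r of each gene of 5 lists with the mean of the 6 contractile genes (horizontal axis) and with Trp63 (vertical axis) across tumors; each point is 1 gene. Luminal genes and smooth muscle partners lie mostly at the right (median r of 0.76 and 0.73 with the contractile mean), and squamous genes at the upper left (median r of -0.67 with the contractile mean and 0.56 with Trp63).

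Markers of other cells that make contractile proteins, or that a tumor sample can hold, moved as follows between early and late tumors, and their part in the differences of the member genes was not tested. Of 9 vascular mural genes 1 was called, Angpt1, lower in early tumors at -1.16 ± 0.39 (SE; adjusted p = 0.042), with r = 0.73 with the contractile mean. Notch3, a receptor of vascular smooth muscle cells, was next by p, at -0.48 ± 0.23 (SE; adjusted p = 0.15), with r = 0.66. Kcnj8 and Abcc9, which encode subunits of a potassium channel, and Cox4i2 differed by -0.17 ± 0.21, 0.01 ± 0.34 and -0.22 ± 0.19, with r of 0.48, 0.18 and 0.45, and Mcam by -0.18 ± 0.16, with r = 0.17. The pericyte markers Rgs5, Pdgfrb and Cspg4 differed by -0.09 ± 0.24, 0.32 ± 0.39 and 0.16 ± 0.35, with r of 0.06, -0.31 and 0.26. Over the 9 genes the median difference was -0.17 and the median r 0.26, and under median centring none was called and the median difference was 0.25. The mean log2 ratio over the 9 mural genes ranged from -0.97 to -0.40 in early and from -1.24 to 0.05 in late tumors. Of 10 fibroblast genes Dcn (-2.54 ± 0.52, SE; adjusted p = 0.0031) and Postn (-1.88 ± 0.45; adjusted p = 0.0084) were lower in early tumors, while Col1a1 (0.43 ± 0.55) and Col3a1 (-0.39 ± 0.46) were not called. The list mean ranged from -2.42 to -1.67 in early and from -2.56 to 0.11 in late tumors. Of 6 endothelial genes Vwf was lower, at -2.66 ± 0.62 (SE; adjusted p = 0.0063), whereas Kdr, next by p (-0.53 ± 0.22; adjusted p = 0.10), and Pecam1 (-0.05 ± 0.18) were not called, with list means from -1.74 to -1.01 in early and from -2.12 to -0.06 in late tumors. None of 9 skeletal muscle, 4 macrophage or 4 adipocyte genes was called. Skeletal muscle genes lay far below the reference, with list means from -5.67 to -2.80 in early and from -5.18 to -1.63 in late tumors, and the smallest p were for Myog (-0.38 ± 0.16, SE) and Myh2 (-1.32 ± 0.72). Macrophage list means ranged from -0.62 to 0.26 and from -0.54 to 0.80, with Csf1r (-0.41 ± 0.23, SE) and Itgam (-0.65 ± 0.38) first by p. Adipocyte list means ranged from -3.89 to -2.65 and from -4.84 to 0.81, with Plin1 (-0.98 ± 0.50, SE) and Fabp4 (-0.84 ± 0.54) first. The median r with the contractile mean was 0.67 over the adipocyte, 0.26 over the endothelial and 0.25 over the skeletal muscle genes. It was 0.11 over the macrophage and -0.05 over the fibroblast genes. Single genes had higher values, with 0.86 for Vwf and 0.74 for Dcn and for Postn. All genes of the macrophage and adipocyte lists, and 7 of the 9 mural genes, cleared background in Cy5 on all 24 arrays.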

How the data were processed

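The authors deposited scanner output for 24 arrays (Agilent Feature Extraction 8.5.1.1 per the labels, 11.0.1.1 per the file headers), with intensity values of spot and local background in both dyes, not normalized for dye. The deposited log10 ratios of Cy5 to Cy3 were normalized by the scanner software and served as an alternative. Analysis used limma 3.58.1 under R 4.3.3. Normexp (offset 50) fitted on spots without outlier flags removed background, and loess normalized the ratios. Rows dimmed by over 0.5 log2 units in bands of 10 were set missing on 7 arrays. A probe was kept where Cy3 and Cy5 each exceeded their background by over 10 on 80% or more of its undimmed arrays (27302 of 39429 probes), 6721 low or flagged values were imputed from 10 nearest probes, and the brightest probe stood for each gene. Genes were named through RefSeq, by accession for 27234 probes. The limma fits were tested on simulated gene values and the imputation on measured values that were hidden. The other steps were not simulated.

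Early against late was fitted over 24 arrays, HFD against LFD over 14, and contrasts within diets on 6 group means; a call was an adjusted p (Benjamini-Hochberg over all genes) under 0.05. Correlations planned over all tumors were given within the sets of tumors instead. The members and lists were chosen with earlier results of these data known. Named genes were all members, the 2 of smallest p and the defining markers of each list, and the 10 most like the contractile mean or Trp63. Other list genes named, those called or highest or lowest in r and the rest of the mural list, were chosen after their values were seen. Alternatives were dimmed rows kept, imputed or extended, slides 6 and 7 left out, the scanner ratio, no background correction, median centring, Cy5 alone, no filter, no imputation, mean over probes, slide or session blocks, array weights, unadjusted p and each array left out.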

Additional observations from a re-analysis of the deposited data

How the results depend on the processing

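Over all 24 tumors each member kept its direction under every alternative run. The count of members called between early and late tumors was 3, and was 2 to 4 with the dimmed rows imputed or extended, the scanner ratio, no background correction, median centring, no filter, no imputation, mean over probes, session as a block and without slides 6 and 7. It was 1 with the dimmed rows kept, with Cy5 alone and with slide as a random block, 7 with array weights, 6 at an unadjusted p, and 0 within each of the first and second scan sessions. Leaving out each tumor gave 1 (without MSU_34, for example) to 6 (without MSU_137). Within HFD it moved from 0 to 6 with array weights, and within HFD-LFD to 1 (Trp63, higher by 0.94, adjusted p = 0.035) within the second session; no other alternative, and no tumor left out, gave a call there, between HFD and LFD, or between the changes in the 2 diets. Some differences that were not called turned: Oxtr within HFD was 0.17 and within HFD-LFD 0.25 under median centring and 0.0097 with array weights, Trp63 within HFD was -0.027 with the mean over probes, and within HFD-LFD, leaving out 1 tumor gave -0.43 to 0.35 for Oxtr and -3.06 to 0.17 for Myl9, whose difference over all its tumors was -1.44 and turned without MSU_58. The cause was not tested. Over all genes, 3647 were called, against 1623 with slide as a block, 6676 with array weights and 5273 under median centring, which moved the share called higher from 44.4% to 89.7% within HFD and from 59.1% to 94.0% within HFD-LFD. Of 112 list genes 21 were called, against 11 with slide as a block, 47 with array weights, 38 at an unadjusted p, 8 within the first session, 27 within the second, 27 with session as a block and 10 to 32 with single tumors left out (10 without MSU_768, 32 without MSU_86). Of 56 relations 12 passed, and 5 with the dimmed rows kept. The Trp63 probe A_55_P1952056 gave 0.82 (adjusted p = 0.11) with slide as a block and 0.55 (0.36) within the first session. Extending the dimmed rows and the fits of single probes were chosen after seeing the data. No paired analysis was possible because the replicate numbers follow accession order and pair no tumors. The number of arrays, 3 in each early group, limits the precision.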

Other observations

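No tumor stood far enough from the others of its group to pass Dixon's test in any of the 20 combinations of member gene and group with 4 to 10 tumors. The HFD early, HFD-LFD early and HFD-LFD late groups, with 3 tumors each, were too small to be tested. Where a group splits into a high and a low set, as LFD does for Cnn1, the test can hardly single out a tumor. The result thus does not show that no tumor is aberrant. The genes running most opposite to the contractile mean, by Pearson's r over 20 or 24 tumors and given as a description, were Nme4 (-0.93), Serpinb11 (-0.90), Samd1 (-0.90), Grhl3 (-0.90) and Rcc2 (-0.90). Of these, Serpinb11 was higher in early tumors by 3.44 ± 0.84 (SE; adjusted p = 0.0098 in limma) and Grhl3, a transcription factor of epidermal differentiation, by 2.61 ± 0.78 (adjusted p = 0.027). Those most opposite to Trp63 were Vrk3 (-0.83), Inpp5j (-0.82), the luminal keratin Krt18 (-0.81), Cldn7 (-0.80) and Hint2 (-0.80), over 17 or 20 tumors. These genes were chosen after their values were seen.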
